A study of Mus musculus with 6 samples.

Results

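The genes described here are the machinery of the G2 and M phases of the cell cycle apart from kinetochore genes: mitotic kinases, cyclins, kinesins, spindle proteins, condensin subunits and cytokinesis proteins. They were chosen by name, with earlier results of these data known, from a list of 52 symbols. Of these 52 of 52 were among the 23060 rows of the deposited expression table. RNA was sequenced from 3 tachypaced and 3 control libraries of cells labelled HL-1, to see how the expression of atrial myocytes changes after tachypacing. Tachypacing is rapid electrical stimulation, a culture model of the fast atrial rate in atrial fibrillation. Both groups carried the label WT and the tissue label heart, and both grew in Claycomb medium with serum, norepinephrine and glutamine. How fast and how long the cells were paced is not stated. HL-1 is a single mouse atrial line whose growth is driven by a viral large T antigen under an atrial promoter, so its cells cycle in culture, unlike adult atrial myocytes. Nothing in the labels says whether the libraries came from separate cultures, so each p-value reflects variation among these 6 libraries alone, some or all of which could be technical.

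The transcripts did not bear out the label. Of 11 cardiomyocyte markers 6 were at 0 throughout, among them the atrial light chain gene Myl7 and the heart regulator genes Gata4 and Tbx5, and the highest value of any of them in any library was 0.342 FPKM. Of 10 macrophage markers, 9 were abundant enough to test, and the summed level of the 10 ran from 1467 to 1627 FPKM in tachypaced and from 1190 to 1332 FPKM in control libraries. Control replicate 1 also stood apart from the other controls: on the first principal component of all tested genes, with 56.4% of the variance, the tachypaced libraries lay at -12.5 to -6.19, control replicate 1 at -1.11 and control replicates 2 and 3 at 13.4 and 17.4. Counts of mitotic and other cell cycle genes that changed are therefore given with and without this library.

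Entry into mitosis is driven by CDK1 bound to cyclin A2 or B, and the Polo and Aurora kinases then build the spindle and the cytokinetic furrow. CDC20 and the ubiquitin conjugating enzyme UBE2C direct the anaphase promoting complex, which destroys securin and cyclin B so that chromatids part and the cell leaves mitosis. Many genes of this kind are transcribed together late in the cycle by FOXM1, B-MYB and the MuvB complex. Their levels in bulk RNA therefore follow the share of cells in G2 and M as well as the level per cell, and fewer such cells cannot be told apart from less RNA in each.

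All 52 genes reached the level tested, an average of 1 FPKM or more across the libraries, and all 52 had a lower estimate in tachypaced libraries, as did 58.9% of all tested genes. By limma on log2(FPKM + 1), Benjamini-Hochberg adjusted over the 10361 genes tested with a threshold of 0.05, 26 of the 52 fell and 0 rose. Over all tested genes 3.22% fell and 2.3% rose. Because the list was chosen with earlier results of these data known, this contrast is not independent evidence. At an unadjusted p under 0.05, 46 of the 52 were lower and 0 higher, against 19.4% and 10.8% of all tested genes. Their median log2 fold change was -0.40, against -0.04 over all tested genes, and the ratio of tachypaced to control mean FPKM ran from 0.494 for Kif20a to 0.916 for Kif11, with a median of 0.719. Tachypaced and control values did not overlap in 40 of the 52 genes, as in 22.4% of all tested genes in the downward direction. The FPKM of the 52 genes summed to 718, 701 and 790 in tachypaced libraries, against 859, 1027 and 1134 in control libraries.

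The calls lay close to the threshold, with limma adjusted p-values from 0.0435 to 0.0478 for the 26 genes that fell and from 0.0502 to 0.417 for the other 26. Without control replicate 1, 48 of the 52 fell, against 18.8% of all tested genes. That library was the lowest control in 45 of the 52 genes, so leaving it out necessarily widened the difference in those genes. Leaving out any other single library left 0 of 52 called by limma. In these fits 37 to 47 of the 52 were lower at an unadjusted p under 0.05, against 1196 to 1781 of the 10361 tested genes. After adjustment these fits called almost nothing in any gene, at most 0.00965% of all tested genes as lower. The calls were also lost with quantile normalization, without limma's trend and without the filter on low values, at 0 of 52 each. Of all tested genes 0.0386%, 0.0% and 0.0% were called lower there. At an unadjusted p under 0.05, 45, 47 and 42 of the 52 were lower, against 1565 of 10361, 1980 of 10361 and 2031 of 15992 tested genes. With median of ratios scaling 20 of the 52 fell, against 1.74% of all tested genes, and with a common FPKM total 37 fell, against 8.9%.

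**Figure D1:**
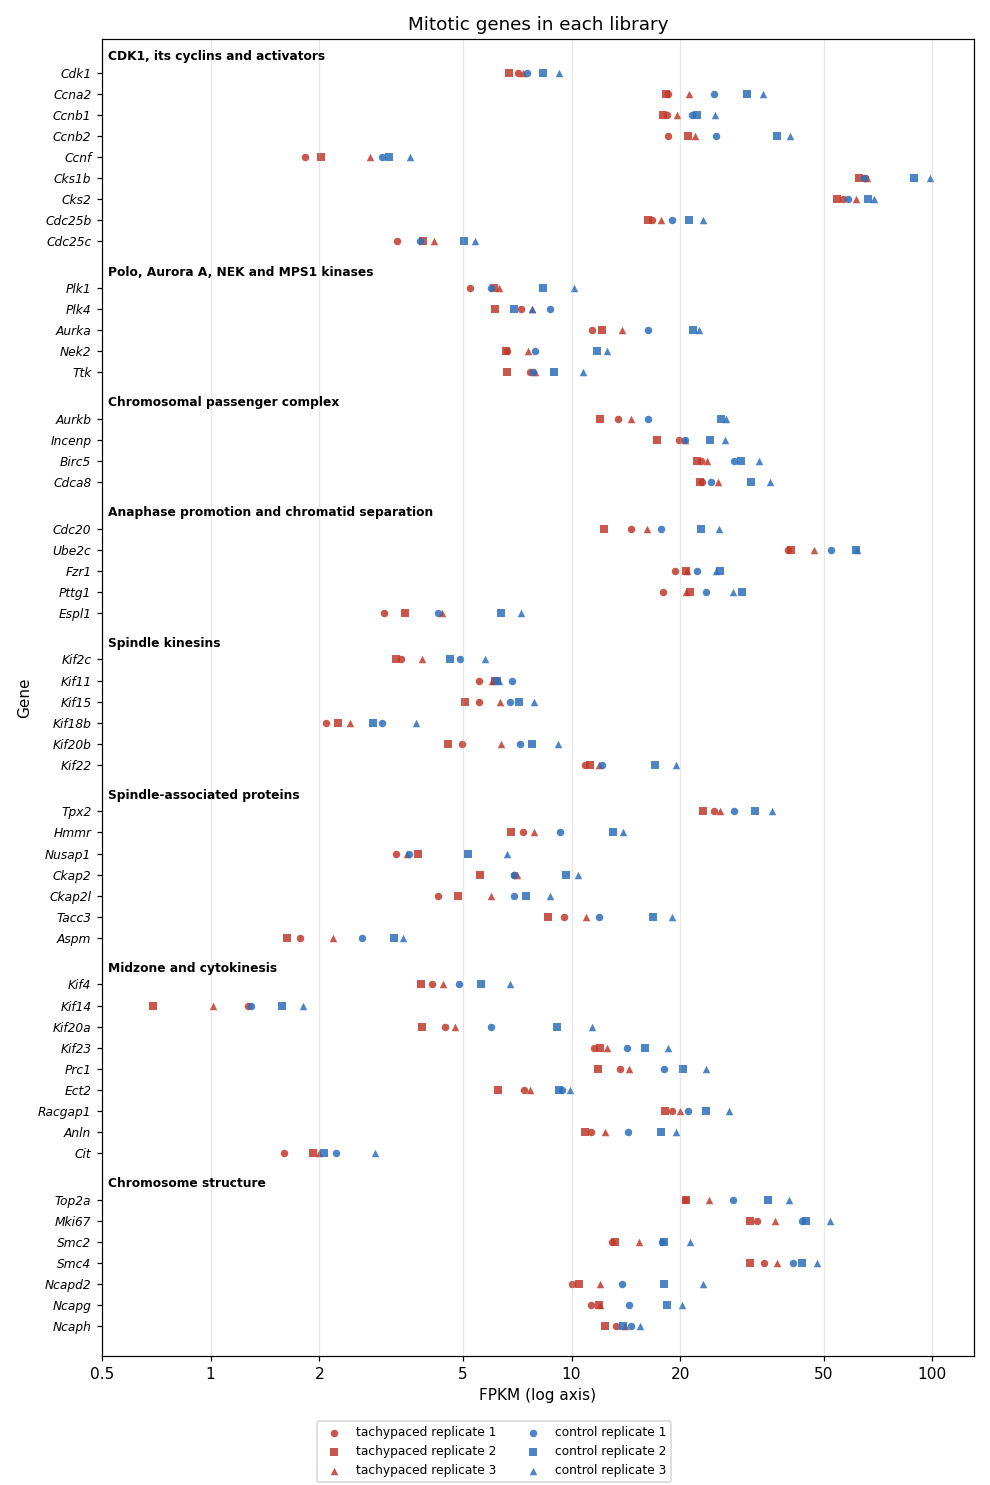
FPKM (log axis) of each of the 52 mitotic genes in the 3 tachypaced (red) and 3 control (blue) libraries, grouped by role, with 1 marker shape per replicate number. Control replicate 1 (blue circles) mostly lies between the tachypaced libraries and the other controls.

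**Figure D2:**
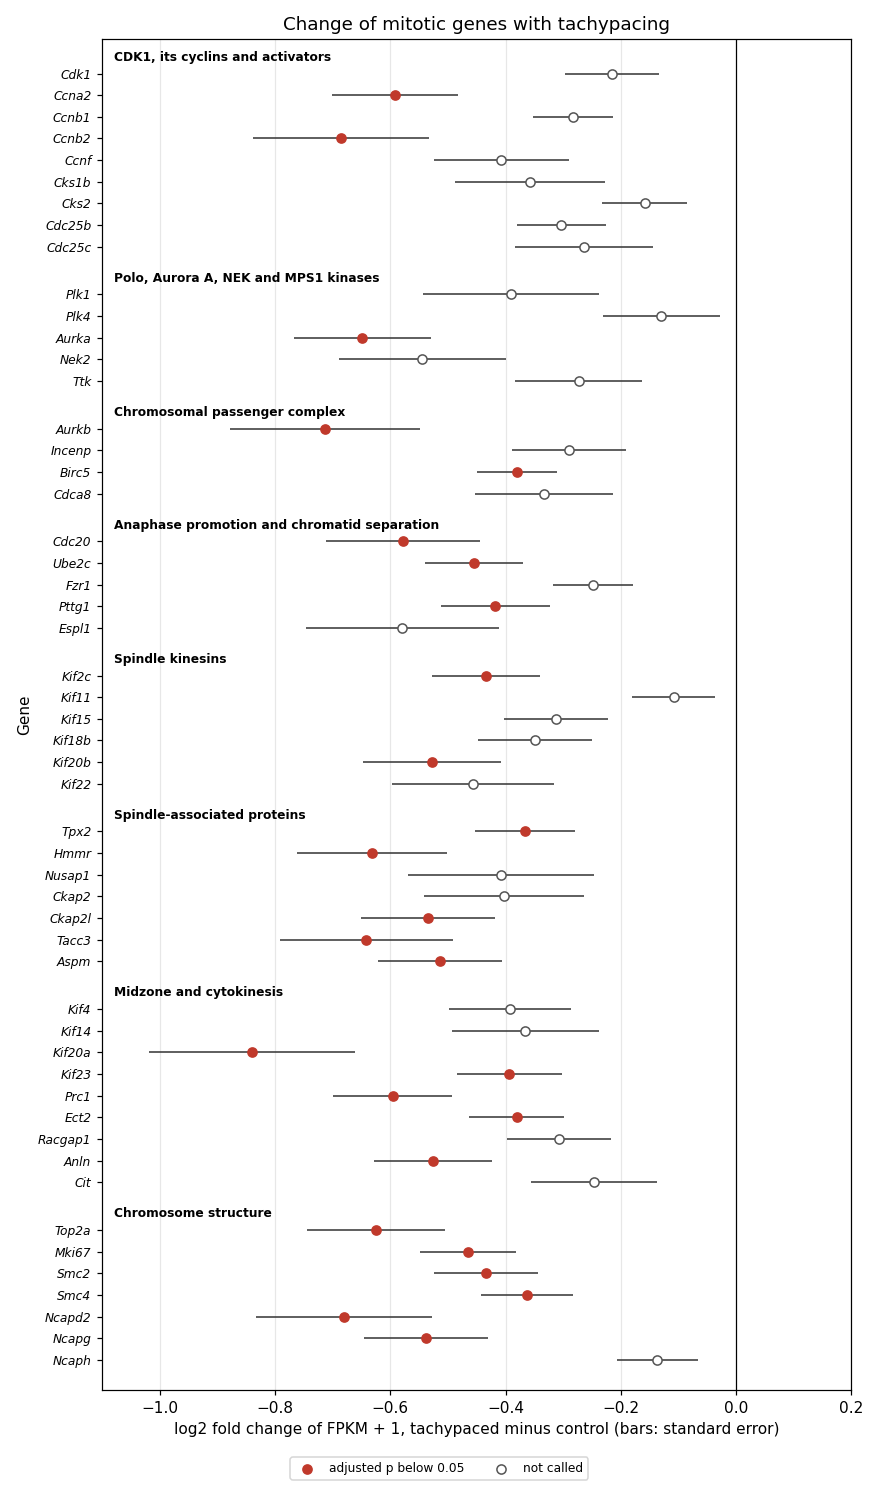
Log2 fold change of FPKM + 1 (tachypaced minus control) of the 52 mitotic genes, with standard errors as bars. Filled points are the 26 genes with a limma adjusted p under 0.05, and every point lies below 0.

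The promoters of the members are described next. The members were chosen by name, so their motif shares describe this list, and a link to tachypacing was not tested. Windows from 250 bases before to 50 bases after the start of transcription were taken from RefSeq on GRCm38.p6, which held 47 windows for 45 of the 52 genes (not Ccna2, Cdc25c, Aurkb, Incenp, Tpx2, Kif20a and Smc4). The cell cycle genes homology region (CHR), which MuvB binds, was searched as TTTGAA on both strands, and the box that the factor NF-Y binds as CCAAT on both strands. Matches of the 2 motifs can share at most 1 base. TTTGAA occurred in 74.5% of the 47 mitotic windows, against 12.1% of 10256 windows of tested genes and 17.9% of all 32851 windows. Of 53 windows of further G2 and M phase genes, a list described below, 28.3% held it. CCAAT occurred in 76.6% of mitotic windows, 38.1% of windows of tested genes and 37.4% of all windows. Both stood in 66.0% of mitotic windows, against 4.95% of windows of tested genes. A TTTGAA match that began within 50 bases of the start was found in 63.8% of mitotic windows, against 3.1% of windows of tested genes. Among windows of the genes that fell, 20 of 23 held TTTGAA, and among those of the other members 15 of 24 did. Counted by gene these were 18 of 21 and 15 of 24. The calls that divide these sets lay close to the threshold, and the difference was not tested. Of 312 windows of genes that fell and were not members, 16.3% held it. The rarer CHR forms TTCGAA and TTTAAA, each its own reverse complement, occurred in 4.26% and 17.0% of mitotic windows, against 2.25% and 8.64% of windows of tested genes. A match is a description of the letters and shows no binding in these cells.

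The windows below belong to members that fell the most in their role group among those with a window. Birc5, Kif20b and Ncapd2 were chosen by the same rule, and their windows are not shown. The Birc5 window holds neither TTTGAA nor CCAAT, and the Kif20b window holds TTTGAA without CCAAT. In Ncapd2 the only TTTGAA begins at -123 bases from the RefSeq start. That start lies inside the gene as GENCODE places it, up to 125191701 on the minus strand. The match is therefore nearer to the GENCODE start. In Ccnb2, Aurka, Cdc20 and Prc1 both motifs lie near the start, while the Tacc3 window holds none of the motifs searched. Capitals mark the CHR forms and CCAAT in either orientation, each window runs 5′ to 3′ on the gene's strand, and its last 50 bases follow the RefSeq start. For 37 of the 47 mitotic windows, part of these bases was found in the first part of a GENCODE transcript of the gene. The RefSeq start of Aurka lies outside the gene as GENCODE places it, so positions depend on the annotation. Prc1 has 2 windows, of which the first listed is shown.
Ccnb2, chr9:70421505-70421804, minus strand: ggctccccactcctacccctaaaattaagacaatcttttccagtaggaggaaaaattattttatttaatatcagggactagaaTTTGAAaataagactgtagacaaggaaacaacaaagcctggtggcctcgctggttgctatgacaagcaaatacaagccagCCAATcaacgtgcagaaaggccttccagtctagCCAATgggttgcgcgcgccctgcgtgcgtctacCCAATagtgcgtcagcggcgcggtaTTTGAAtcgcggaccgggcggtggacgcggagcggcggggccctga
Aurka, chr2:172370521-172370820, minus strand: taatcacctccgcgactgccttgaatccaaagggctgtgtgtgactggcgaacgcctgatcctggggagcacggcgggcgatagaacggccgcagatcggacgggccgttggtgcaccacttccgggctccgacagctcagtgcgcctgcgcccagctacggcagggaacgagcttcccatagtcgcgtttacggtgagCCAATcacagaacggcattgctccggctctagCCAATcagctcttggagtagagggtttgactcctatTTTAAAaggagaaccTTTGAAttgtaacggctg
Cdc20, chr4:118437294-118437593, minus strand: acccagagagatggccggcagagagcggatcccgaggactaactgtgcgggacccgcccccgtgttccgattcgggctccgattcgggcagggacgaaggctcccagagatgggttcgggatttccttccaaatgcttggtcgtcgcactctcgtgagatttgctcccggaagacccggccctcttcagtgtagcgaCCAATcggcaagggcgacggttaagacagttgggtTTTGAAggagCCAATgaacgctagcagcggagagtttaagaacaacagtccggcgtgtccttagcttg
Prc1, chr7:80294201-80294500, plus strand: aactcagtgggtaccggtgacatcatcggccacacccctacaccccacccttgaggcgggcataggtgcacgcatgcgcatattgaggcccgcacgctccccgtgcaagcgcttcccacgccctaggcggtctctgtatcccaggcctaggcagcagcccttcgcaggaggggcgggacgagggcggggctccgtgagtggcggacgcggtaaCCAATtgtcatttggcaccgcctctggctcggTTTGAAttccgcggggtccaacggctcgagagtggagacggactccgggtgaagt
Tacc3, chr5:33657878-33658177, plus strand: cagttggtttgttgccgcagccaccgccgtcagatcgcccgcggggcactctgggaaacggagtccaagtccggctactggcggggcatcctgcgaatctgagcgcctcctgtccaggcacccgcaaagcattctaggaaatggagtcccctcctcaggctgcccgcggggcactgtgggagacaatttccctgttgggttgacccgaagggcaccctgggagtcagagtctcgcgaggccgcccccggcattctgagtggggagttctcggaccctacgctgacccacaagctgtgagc

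**Figure D3:**
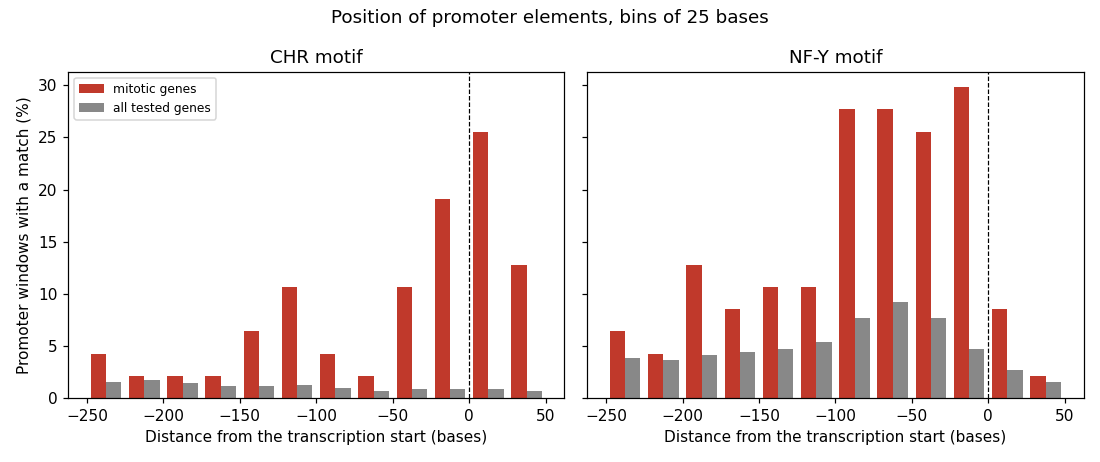
Share of promoter windows (%) with a match to the CHR motif (left) or the NF-Y motif (right) whose first base falls in each bin of 25 bases, by distance from the transcription start, for the 47 windows of mitotic genes (red) and the 10256 windows of all tested genes (grey). In the bin just after the start 25.5% of mitotic windows hold the CHR motif, against 0.858% of windows of tested genes, and each of the 4 bins before it holds NF-Y matches in 25.5% to 29.8% of mitotic windows.

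CDK1 and its partners start mitosis, and the 9 genes of this group had a median log2 fold change of -0.30. Of these 2 fell and 0 rose, against 3.22% and 2.3% of all tested genes. Both that fell are cyclins. Ccnb2, cyclin B2 (chromosome 9, 70407692 to 70421547, GRCm38), stood at 18.5, 21.1 and 21.9 FPKM in tachypaced libraries, against 25.1, 37.0 and 40.4 FPKM in control libraries. All tachypaced values lay below all control values, control replicate 1 was the nearest control, and the gene had a log2 fold change of -0.69 (SE 0.15, limma adjusted p = 0.0456). Ccna2, the cyclin of S phase and early mitosis (chromosome 3, 36564865 to 36572150), stood at 18.4, 18.3 and 21.2 FPKM in tachypaced libraries, against 24.8, 30.6 and 34.0 FPKM in control libraries. Its groups did not overlap either, and it had a log2 fold change of -0.59 (SE 0.11, limma adjusted p = 0.0435). The main mitotic cyclin gene Ccnb1 stood at 18.4, 17.9 and 19.6 FPKM in tachypaced libraries, against 21.6, 22.3 and 24.9 FPKM in control libraries. These values did not overlap, yet the gene just missed the threshold, with a log2 fold change of -0.28 (SE 0.07, limma adjusted p = 0.0502). Cdk1 itself stood at 7.10, 6.72 and 7.35 FPKM in tachypaced libraries, against 7.55, 8.33 and 9.24 FPKM in control libraries, again without overlap, and did not pass, with a log2 fold change of -0.22 (SE 0.08, limma adjusted p = 0.118). Between the cyclins B, the ratio of Ccnb2 to Ccnb1 was 1.0, 1.18 and 1.12 in tachypaced libraries, against 1.16, 1.66 and 1.62 in control libraries, a pair picked after the values were seen. Only 2 of the 3 controls exceeded every tachypaced library in this ratio.

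Among the other partners of CDK1, the small subunit gene Cks2 changed the least, at 56.6, 54.6 and 61.4 FPKM in tachypaced libraries, against 58.3, 66.1 and 68.8 FPKM in control libraries. The groups overlapped, because control replicate 1 lay within the tachypaced range, and Cks2 had a log2 fold change of -0.16 (SE 0.07, limma adjusted p = 0.185). Its paralog Cks1b showed the same layout, with 62.4 to 66.0 FPKM in tachypaced libraries, 64.7 FPKM in control replicate 1 and 88.8 and 98.7 FPKM in the other controls. The activating phosphatase genes Cdc25b and Cdc25c, which remove the inhibitory phosphates of CDK1, averaged 16.9 ± 0.737 and 3.77 ± 0.441 FPKM in tachypaced libraries, against 21.1 ± 2.09 and 4.75 ± 0.845 FPKM in control libraries (SD, n = 3 each), and neither passed. Ccnf, the F-box cyclin that marks proteins for destruction, averaged 2.20 ± 0.498 FPKM in tachypaced and 3.22 ± 0.300 FPKM in control libraries (SD, n = 3 each) and did not pass. All 9 genes of the group fell once control replicate 1, the lowest control in each of them, was left out, against 18.8% of all tested genes.

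Of the 5 genes of Polo, Aurora A, NEK and MPS1 kinases, 1 fell and 0 rose, against 3.22% and 2.3% of all tested genes. Aurora A ripens the centrosomes and builds the spindle poles, and its gene Aurka (chromosome 2, 172356190 to 172370535) stood at 11.4, 12.2 and 13.8 FPKM in tachypaced libraries, against 16.3, 21.7 and 22.6 FPKM in control libraries. The groups were apart, with control replicate 1 nearest to the tachypaced libraries, and Aurka had a log2 fold change of -0.65 (SE 0.12, limma adjusted p = 0.0435). Nek2, whose kinase parts the centrosomes, stood at 6.61, 6.58 and 7.59 FPKM in tachypaced libraries, against 7.91, 11.8 and 12.5 FPKM in control libraries. Its groups did not overlap, but it did not pass, with a log2 fold change of -0.54 (SE 0.14, limma adjusted p = 0.0578). The Polo kinase gene Plk1, needed from mitotic entry to cytokinesis, stood at 5.22, 6.09 and 6.30 FPKM in tachypaced libraries, against 5.97, 8.32 and 10.1 FPKM in control libraries. Control replicate 1 lay inside the tachypaced range, and Plk1 had a log2 fold change of -0.39 (SE 0.15, limma adjusted p = 0.127). The spindle checkpoint kinase gene Ttk (MPS1) had an adjusted p of 0.136 by limma. Plk4, the kinase of centriole duplication, which acts in S phase, stood at 7.24, 6.14 and 7.76 FPKM in tachypaced libraries, against 8.74, 6.92 and 7.76 FPKM in control libraries. Its groups overlapped widely, control replicate 1 held the highest value, and it had a log2 fold change of -0.13 (SE 0.10, limma adjusted p = 0.417). With control replicate 1 left out 4 of the 5 fell, against 18.8% of all tested genes, and Plk4 was the exception (limma adjusted p = 0.709).

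The chromosomal passenger complex corrects faulty attachments at centromeres and then moves to the midzone. Of its 4 genes 2 fell and 0 rose, against 3.22% and 2.3% of all tested genes. Aurkb, its kinase Aurora B (chromosome 11, 69045647 to 69051664), stood at 13.4, 12 and 14.6 FPKM in tachypaced libraries, against 16.3, 26.0 and 26.8 FPKM in control libraries. Control replicates 2 and 3 lay far above the rest, no value of the groups overlapped, and Aurkb had a log2 fold change of -0.71 (SE 0.16, limma adjusted p = 0.0464). Birc5, survivin (chromosome 11, 117849251 to 117855743), stood at 22.8, 22.3 and 23.7 FPKM in tachypaced libraries, against 28.2, 29.4 and 33.1 FPKM in control libraries. The controls were closer together here, clearly above the tachypaced libraries, and Birc5 had a log2 fold change of -0.38 (SE 0.07, limma adjusted p = 0.0435). The scaffold gene Incenp stood at 19.9, 17.2 and 20.6 FPKM in tachypaced libraries, against 20.6, 24.3 and 26.6 FPKM in control libraries. Control replicate 1 lay just below the highest tachypaced library, and Incenp had a log2 fold change of -0.29 (SE 0.10, limma adjusted p = 0.0946). Cdca8, borealin, averaged 23.7 ± 1.58 FPKM in tachypaced and 30.4 ± 5.63 FPKM in control libraries (SD, n = 3 each) and did not pass. Aurkb was thus 41.9% lower in tachypaced libraries and Incenp, its activator, 19.2% lower, as a comparison of group means. All 4 fell without control replicate 1, against 18.8% of all tested genes.

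Of the 5 genes of anaphase promotion and chromatid separation, 3 fell and 0 rose, against 3.22% and 2.3% of all tested genes. Cdc20, the mitotic activator of the anaphase promoting complex (chromosome 4, 118432901 to 118437352), stood at 14.6, 12.3 and 16.2 FPKM in tachypaced libraries, against 17.8, 22.9 and 25.7 FPKM in control libraries. The groups did not overlap, and it had a log2 fold change of -0.58 (SE 0.13, limma adjusted p = 0.0466). Ube2c, the conjugating enzyme of that complex, fell to 42.4 ± 3.85 FPKM in tachypaced libraries, against 58.5 ± 5.37 FPKM in control libraries (SD, n = 3 each). Pttg1, the separase inhibitor securin, fell with a ratio of mean FPKM of 0.738. Espl1, separase itself, stood at 3.03, 3.45 and 4.37 FPKM in tachypaced libraries, against 4.26, 6.39 and 7.26 FPKM in control libraries. With control replicate 1 below the third tachypaced library, Espl1 did not pass despite a log2 fold change of -0.58 (SE 0.17, limma adjusted p = 0.0677). Fzr1 (CDH1), which takes over from CDC20 on the complex after anaphase and through G1, stood at 19.4, 20.8 and 20.9 FPKM in tachypaced libraries, against 22.2, 25.7 and 25.2 FPKM in control libraries. The groups did not overlap but lay close, and Fzr1 had a log2 fold change of -0.25 (SE 0.07, limma adjusted p = 0.0645). The ratio of Cdc20 to Fzr1 was 0.756, 0.593 and 0.778 in tachypaced libraries, against 0.799, 0.890 and 1.02 in control libraries. These ratios did not overlap, and the pair was picked after the values were seen and not tested. All 5 genes fell when control replicate 1 was left out, against 18.8% of all tested genes.

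Kinesins that push, sort and disassemble spindle microtubules gave 2 falling genes of 6, and 0 rose, against 3.22% and 2.3% of all tested genes. Kif20b (chromosome 19, 34922361 to 34975745), a late mitotic kinesin, stood at 4.97, 4.53 and 6.36 FPKM in tachypaced libraries, against 7.20, 7.75 and 9.15 FPKM in control libraries. The groups were apart, and Kif20b had a log2 fold change of -0.53 (SE 0.12, limma adjusted p = 0.0460). Kif2c, the depolymerase MCAK, fell to 3.5 ± 0.320 FPKM in tachypaced libraries, against 5.08 ± 0.590 FPKM in control libraries (SD, n = 3 each). The chromokinesin gene Kif22 stood at 10.9, 11.2 and 11.9 FPKM in tachypaced libraries, against 12.1, 17.1 and 19.4 FPKM in control libraries. Control replicate 1 was nearly level with the tachypaced libraries and the other controls were well above, and Kif22 had a log2 fold change of -0.46 (SE 0.14, limma adjusted p = 0.0774). Kif11 (Eg5), the motor that drives the poles apart, changed the least of the 52 genes, at 5.55, 6.14 and 6.02 FPKM in tachypaced libraries, against 6.82, 6.21 and 6.29 FPKM in control libraries. All 6 values lay within a narrow range, control replicate 1 was the highest, and Kif11 had a log2 fold change of -0.11 (SE 0.07, limma adjusted p = 0.332). Kif15 and Kif18b had adjusted p-values of 0.0669 and 0.0651 by limma. In all 6 genes the groups did not overlap, against 22.4% of all tested genes in the downward direction. Without control replicate 1 all but Kif11 (limma adjusted p = 0.483) fell, against 18.8% of all tested genes.

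Spindle-associated proteins had the lowest median of the role groups, a log2 fold change of -0.51. Of the 7 genes 5 fell and 0 rose, against 3.22% and 2.3% of all tested genes. Tacc3, which bundles kinetochore microtubules with clathrin (chromosome 5, 33658128 to 33678995), stood at 9.55, 8.58 and 11 FPKM in tachypaced libraries, against 11.9, 16.8 and 19.0 FPKM in control libraries. The groups did not overlap, and it had a log2 fold change of -0.64 (SE 0.15, limma adjusted p = 0.0474). Hmmr, the spindle protein RHAMM (chromosome 11, 40701395 to 40733422), stood at 7.33, 6.79 and 7.88 FPKM in tachypaced libraries, against 9.27, 13.0 and 13.9 FPKM in control libraries. Control replicate 1 lay nearer to the tachypaced libraries than to the other controls, and Hmmr had a log2 fold change of -0.63 (SE 0.13, limma adjusted p = 0.0435). Tpx2, the activator and spindle anchor of Aurora A, changed the least of this group, at 24.8, 23.2 and 25.9 FPKM in tachypaced libraries, against 28.3, 32.2 and 36.0 FPKM in control libraries. It still fell, without overlap, with a log2 fold change of -0.37 (SE 0.09, limma adjusted p = 0.0478). Aspm, which holds the spindle poles, fell to 1.86 ± 0.287 FPKM in tachypaced libraries, against 3.08 ± 0.409 FPKM in control libraries, and Ckap2l fell to 5.03 ± 0.879 FPKM in tachypaced libraries, against 7.70 ± 0.908 FPKM in control libraries (SD, n = 3 each). Nusap1 and Ckap2 did not pass: their tachypaced libraries ran from 3.25 to 3.76 and from 5.56 to 7.06 FPKM, and control replicate 1 lay within these ranges, at 3.55 and 6.95 FPKM. All 7 fell without control replicate 1, against 18.8% of all tested genes.

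In the group of the midzone and cytokinesis 5 of 9 genes fell and 0 rose, against 3.22% and 2.3% of all tested genes. Tachypaced and control values did not overlap in any of the 9, against 22.4% of all tested genes in the downward direction. Kif20a, the kinesin MKLP2 that carries Aurora B to the midzone, stood at 4.45, 3.86 and 4.76 FPKM in tachypaced libraries, against 5.98, 9.11 and 11.4 FPKM in control libraries. This was the largest change of the 52 genes on this scale, a log2 fold change of -0.84 (SE 0.18, limma adjusted p = 0.0441), with the mean 50.7% lower in tachypaced libraries. Prc1, which crosslinks midzone microtubules (chromosome 7, 80294450 to 80316259), stood at 13.7, 11.8 and 14.5 FPKM in tachypaced libraries, against 18.1, 20.4 and 23.6 FPKM in control libraries. The controls were well above the tachypaced libraries, control replicate 1 included, and Prc1 had a log2 fold change of -0.60 (SE 0.10, limma adjusted p = 0.0435). Kif23, Ect2 and Anln, encoding a centralspindlin kinesin, the activator of RhoA at the equator and the ring scaffold anillin, fell with ratios of mean FPKM of 0.743, 0.746 and 0.673. Racgap1, the partner of Kif23 in centralspindlin, had a ratio of 0.797 and did not pass (limma adjusted p = 0.0686). The chromokinesin gene Kif4 did not pass either (limma adjusted p = 0.0596). Cit, the citron kinase of the ring, stood at 1.59, 1.92 and 2.00 FPKM in tachypaced libraries, against 2.22, 2.06 and 2.86 FPKM in control libraries. These low values nearly touched, and Cit had a log2 fold change of -0.25 (SE 0.11, limma adjusted p = 0.167). Kif14, the kinesin that recruits citron kinase, averaged 0.993 ± 0.291 FPKM in tachypaced and 1.56 ± 0.257 FPKM in control libraries (SD, n = 3 each), low values at which the scale understates a change. Without control replicate 1, 8 of the 9 fell, against 18.8% of all tested genes, and Cit was the exception (limma adjusted p = 0.117).

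Of the 7 genes of chromosome structure 6 fell and 0 rose, against 3.22% and 2.3% of all tested genes. This was the largest share of any role group, though the calls that set these shares lay close to the threshold. Top2a, the topoisomerase that untangles chromatids (chromosome 11, 98992943 to 99024189), stood at 20.7, 20.7 and 24.1 FPKM in tachypaced libraries, against 28.0, 35.1 and 40.2 FPKM in control libraries. The groups were clearly apart, and Top2a had a log2 fold change of -0.62 (SE 0.12, limma adjusted p = 0.0435). Mki67, the Ki-67 coat protein used as a marker of cycling cells (chromosome 7, 135689784 to 135716361), stood at 32.8, 31.1 and 36.7 FPKM in tachypaced libraries, against 43.6, 44.6 and 51.9 FPKM in control libraries. Here control replicate 1 lay close to control replicate 2, well above the tachypaced libraries, and Mki67 had a log2 fold change of -0.47 (SE 0.08, limma adjusted p = 0.0435). Of the condensin genes, Ncapd2 (chromosome 6, 125168007 to 125191701) changed the most, at 10.0, 10.5 and 12 FPKM in tachypaced libraries, against 13.8, 18 and 23.1 FPKM in control libraries. The controls were spread widely but did not reach down to the tachypaced libraries, and Ncapd2 had a log2 fold change of -0.68 (SE 0.15, limma adjusted p = 0.0459). The condensin core genes Smc2 and Smc4 and the subunit gene Ncapg fell with ratios of mean FPKM of 0.727, 0.773 and 0.665. Ncaph, the kleisin of the same complex, stood at 13.3, 12.4 and 14.1 FPKM in tachypaced libraries, against 14.7, 13.9 and 15.5 FPKM in control libraries. Its groups overlapped, and it had a log2 fold change of -0.14 (SE 0.07, limma adjusted p = 0.217). The ratio of Ncapd2 to Ncaph was 0.756, 0.845 and 0.852 in tachypaced libraries, against 0.943, 1.3 and 1.49 in control libraries, without overlap. This pair too was picked after the values were seen and was not tested. Without control replicate 1, all but Ncaph (limma adjusted p = 0.196) fell, against 18.8% of all tested genes.

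The 6 libraries took nearly the same order in most of the genes. Control replicate 1 was the lowest control in 45 of the 52 genes, as in 41.7% of all tested genes, and tachypaced replicate 3 was the highest tachypaced library in 48 of them, as in 41.5% of all tested genes. On a log2 scale where the mean of control replicates 2 and 3 is 0 and the mean of the tachypaced libraries is 1, control replicate 1 lay at a median of 0.560 over the 52 genes. Averaged over the 52 genes relative to each gene's mean, the log2 levels were -0.25, -0.28 and -0.11 in tachypaced replicates 1, 2 and 3, and 0.02, 0.24 and 0.39 in control replicates 1, 2 and 3. The groups thus stayed apart, by less than the spread among the controls. The coefficient of variation had a median of 8.86% in tachypaced and 14.1% in control libraries over the 52 genes, against 5.53% and 7.76% over all tested genes.

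**Figure D4:**
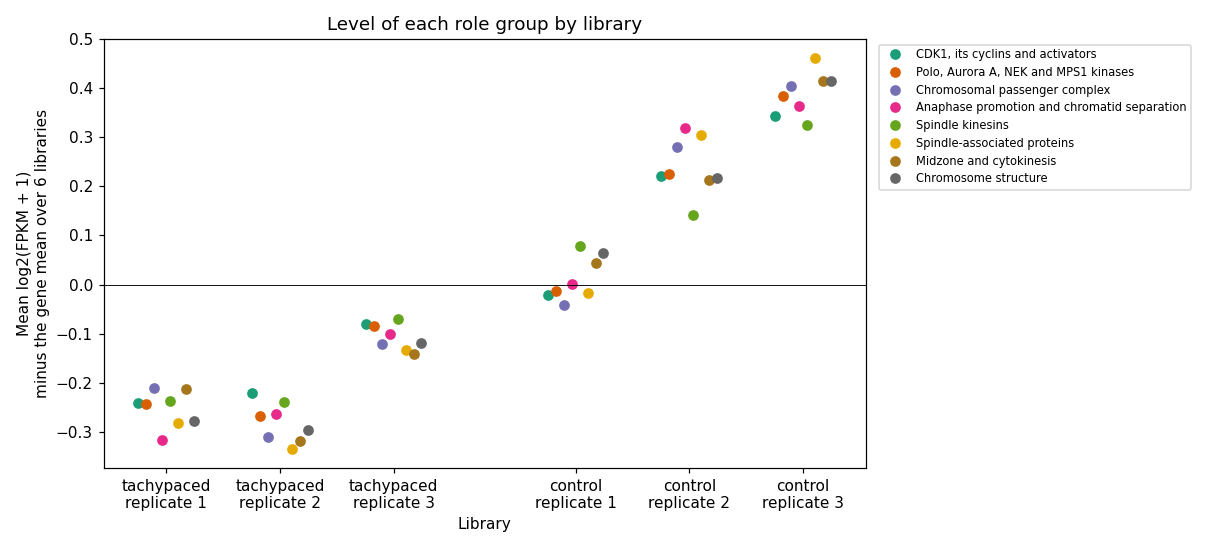
Mean log2(FPKM + 1) of the genes of each role group in each library, relative to each gene's mean over the 6 libraries, with 1 colour per role group. All role groups lie lowest in tachypaced replicates 1 and 2 and highest in control replicate 3, and control replicate 1 lies near 0.

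Levels of FPKM, which are per transcript length, spanned a wide range among the genes. In tachypaced libraries Cks1b was the highest at 64.4 ± 1.83 FPKM, followed by Cks2 at 57.5 ± 3.49 and Ube2c at 42.4 ± 3.85 FPKM (SD, n = 3 each). The same 3 genes led in control libraries, at 84.1 ± 17.5, 64.4 ± 5.46 and 58.5 ± 5.37 FPKM. Cks1b and Cks2 lay apart in tachypaced libraries but their ranges overlapped in control libraries, since control replicate 1 held 64.7 FPKM of Cks1b, below the 66.1 and 68.8 FPKM of Cks2 in control replicates 2 and 3. At the low end stood Kif14, Cit and Aspm in both groups, and the 3 lowest in tachypaced libraries averaged 0.993, 1.84 and 1.86 FPKM. Aurkb ranked 20 of 52 in tachypaced and 16 of 52 in control libraries, and Kif20a ranked 42 in tachypaced and 35 in control libraries, while Ncaph ranked 22 in tachypaced and 29 in control libraries. The cyclin genes Ccnb1 and Ccnb2, at 18.6 ± 0.867 and 20.5 ± 1.78 FPKM in tachypaced libraries, had overlapping values there, and at 22.9 ± 1.75 and 34.2 ± 8.06 FPKM in control libraries they did not overlap.

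Other genes of the cycle were described beside these, and over all tested genes 3.22% fell and 2.3% rose. Further G2 and M phase genes, such as subunits of the anaphase promoting complex and spindle proteins, had a median log2 fold change of -0.26. Of 51 tested 11 fell and 0 rose. No subunit of the anaphase promoting complex was among those that fell, and their estimates went in both directions. Pimreg fell to 5.11 ± 0.887 FPKM in tachypaced libraries, against 8.77 ± 1.46 FPKM in control libraries. Iqgap3 averaged 6.14 ± 1.09 FPKM in tachypaced and 10.4 ± 2.02 FPKM in control libraries. Cdca2, a partner of protein phosphatase 1 on anaphase chromosomes, averaged 7.72 ± 1.02 FPKM in tachypaced and 12.1 ± 2.37 FPKM in control libraries (SD, n = 3 each), and both fell. Wee1, the kinase that holds CDK1 inactive, stood at 4.02 ± 0.409 and 4.49 ± 0.613 FPKM in tachypaced and control libraries, with overlap and a limma adjusted p of 0.433. Of 16 cohesin genes 3 fell and 0 rose: Cdca5 (sororin), Sgo2a (shugoshin 2) and the core subunit gene Smc1a, with log2 fold changes of -0.64, -0.51 and -0.31. Of 19 tested regulators of cell cycle transcription 2 fell and 0 rose. They were Foxm1, at 5.34, 6.0 and 6.66 FPKM in tachypaced libraries, against 7.55, 8.74 and 10.4 FPKM in control libraries, and Mybl2 (B-MYB), at 5.15, 5.48 and 5.66 FPKM in tachypaced libraries, against 6.61, 7.31 and 8.29 FPKM in control libraries. Neither gene's groups overlapped, and the log2 fold changes were -0.49 and -0.38 with an adjusted p of 0.0460 by limma for each.

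Of 19 tested G1 cyclins, kinases and inhibitors 1 fell and 0 rose, with a median log2 fold change of -0.03, close to the -0.04 of all tested genes. The gene that fell was Ccng1, the p53 target cyclin G1, at 24.1 ± 1.11 FPKM in tachypaced and 33.6 ± 4.52 FPKM in control libraries (SD, n = 3 each). Ccnd1, cyclin D1, stood higher in all 3 tachypaced libraries, at 61.3, 69.8 and 59.8 FPKM in tachypaced libraries, against 58.4, 55.9 and 52.5 FPKM in control libraries, without passing the test (a log2 fold change of 0.19 (SE 0.07, limma adjusted p = 0.116)). Cdk2 stood at 25.2 ± 0.985 and 27.2 ± 0.532 FPKM (limma adjusted p = 0.228) and the inhibitor gene Cdkn1a (p21) at 156 ± 12.3 and 178 ± 36.0 FPKM (limma adjusted p = 0.401) in tachypaced and control libraries. The difference between the lists was not tested. Without control replicate 1 the genes that fell numbered 32 of 51 further G2 and M, 8 of 16 cohesin, 9 of 19 regulator and 7 of 19 G1 genes, against 18.8% of all tested genes.

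**Figure D5:**
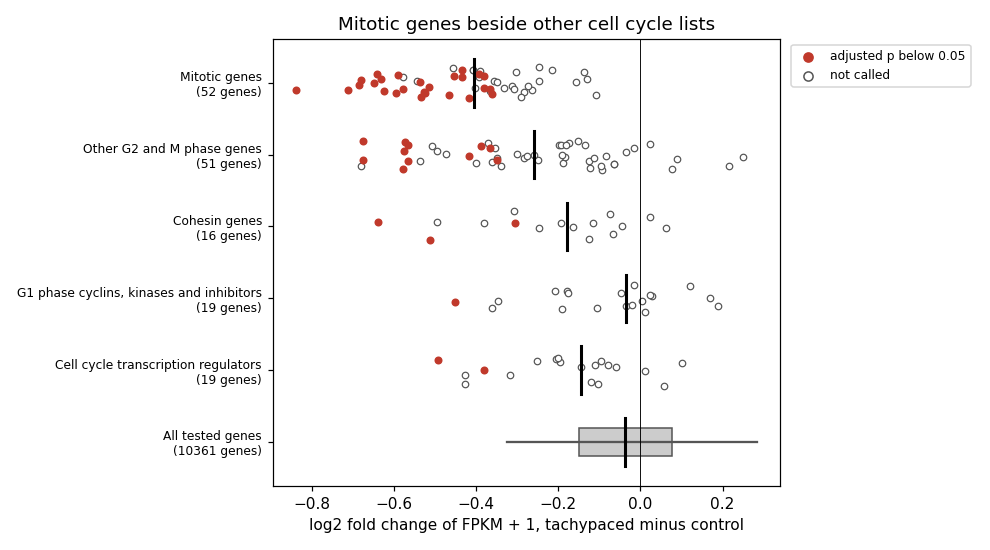
Log2 fold change of FPKM + 1 (tachypaced minus control) of the 52 mitotic genes and of the tested genes of 4 further cell cycle lists, with filled points for a limma adjusted p under 0.05 and thick lines for medians. The box for all 10361 tested genes spans the quartiles from -0.15 to 0.08 and its line the range from the 5th to the 95th percentile, and the median of the mitotic genes lies at -0.40.

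Transcripts of other kinds differed between the same libraries. Of 9 tested macrophage markers 2 rose and 0 fell, Lyz2 and Cd14. Lyz2, the macrophage lysozyme, stood at 504.6, 537 and 470.4 FPKM in tachypaced libraries, against 410.5, 339 and 323 FPKM in control libraries, so that control replicate 1 was again the control nearest to the tachypaced libraries. Of 9 mitochondrial genome genes 2 rose and 0 fell, and their sum ran from 33150 to 36820 FPKM in tachypaced and from 28940 to 30820 FPKM in control libraries. Markers of fibroblasts and T cells reached at most 0.0961 and 0.0520 FPKM in any library, and of 5 endothelial markers 1 could be tested, Pecam1, with no call. The part of these differences in the lower mitotic transcripts was not tested. Exons of 20 of the 52 genes, 10 of them (Ccna2, Cdc20, Kif20a and Prc1 included) among those that fell, overlap exons of another gene in GENCODE M21, and since no source used here states the strand setting, reads of such neighbours cannot be told apart. Over all tested genes 334 fell and 238 rose, a split that became 180 and 268 with median of ratios scaling and 922 and 250 with a common FPKM total, while the 52 mitotic genes had lower estimates in tachypaced libraries under all 3 scalings.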

How the data were processed

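RNA-seq of 3 tachypaced and 3 control libraries was available as 1 table of FPKM per gene, which the authors deposited on the GRCm38 build, per the submitters' processing notes. No source used here names the aligner, the quantifier, the annotation or the strand setting. The table holds 23060 rows, of which 7068 were at 0 in all libraries, and FPKM sums ran from 411050 to 432244. Whole reads could not be recovered: at most 5.15% of low value ratios fell in 1 bin, so depth is unknown and no counting error is given. No 2 libraries were identical.

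Genes averaging 1 FPKM or more were fitted with limma 3.58.1 (R 4.3.3) with a trend on log2(FPKM + 1), tachypaced minus control, in all 6 libraries, without a replicate block. Fold changes on this scale understate those of low genes. P-values were Benjamini-Hochberg adjusted over all 10361 genes, with a threshold of 0.05. The procedure was also run on simulated data with noise drawn separately for each gene and library. Such data hold no shift shared by the genes of a library, so they cannot show how reliable the calls are here. Tables and figures used Python 3.11.15 with pandas 2.3.3, numpy 2.4.6 and matplotlib 3.10.9. Gene positions and exon overlaps come from GENCODE M21 (GRCm38), and promoter windows from RefSeq (GRCm38.p6).

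The members and all lists were chosen with earlier results of these data known, so their direction is not independent evidence, and no list received a test of its own. By a fixed rule, every library's value is given for a set list of members and for the members with the largest and smallest change in each role group, and for other lists the called genes with the largest changes. A search of protein sequences for destruction motifs was planned and not done. Alternatives were another pseudocount, other filters, 3 other scalings, no trend, a robust fit, a replicate block, each library left out and, chosen after seeing the data, limma library weights.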

Additional observations from a re-analysis of the deposited data

How the results depend on the processing

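All 52 mitotic genes kept a lower estimate in tachypaced libraries under every alternative run (42 of 42 tested at a minimum mean of 5 FPKM), and no call was reversed. Which genes passed the threshold depended on the fit. Counts are given for all genes, mitotic genes, further G2 and M genes, cohesin genes, G1 genes and transcription regulators. Genes that fell numbered 0 in all 6 sets without the filter on low values and 0 in all 6 without limma's trend, and by quantile normalization they numbered 4 over all genes and 0 in each of the others. With median of ratios scaling 180 of all genes and 7 further G2 and M genes fell, besides 20 mitotic genes. With a common FPKM total the counts were 922 of all genes, 37 mitotic, 21 further G2 and M, 6 cohesin and 4 G1 genes, and a robust fit gave 5 cohesin genes. With library weights, chosen after seeing the data, they were 1942, 48, 31, 8, 7 and 8. Genes that rose numbered 0 of all genes without the filter, 13 by quantile normalization, 2 without the trend and 1154 with library weights, under which 1 further G2 and M and 1 G1 gene also rose. Leaving out 1 library gave 0 to 1947 genes that fell and 1 to 1162 that rose over all genes, and 0 to 48 mitotic, 0 to 32 further G2 and M, 0 to 8 cohesin, 0 to 7 G1 and 0 to 9 regulator genes that fell. It gave 0 mitotic genes that rose, 0 to 1 further G2 and M genes and 0 to 2 G1 genes. The highest count that fell in each set came without control replicate 1. With a replicate block 591 of all genes fell, and 37 mitotic, 21 further G2 and M, 6 cohesin and 4 regulator genes. Deviations of libraries with the same number correlated at 0.061, -0.034 and 0.157, and the numbers were not taken to pair the libraries. Control replicates 1 and 2 did not correlate best with their own number, but control replicate 3 did, at 0.157, the highest of all pairs. These values do not settle whether the libraries were paired. The median log2 fold change of all genes moved from -0.04 to -0.07 with a common total and to near 0 with the other scalings. With 3 libraries a group and unknown depth, genes close to the threshold cannot be ordered by their adjusted p-values.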

Other observations

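Across the 52 mitotic genes Pearson's r was -0.06 and Spearman's rho -0.07 between the log2 mean FPKM and the log2 fold change of FPKM + 1, a scale that understates the change of low genes. These are descriptions across genes that share the same libraries. The coefficient of variation among control libraries was larger than that among tachypaced libraries in 41 of 52 genes, as in 6698 of 10361 tested genes, and it had r = -0.61 and rho = -0.56 with the log2 fold change across the 52 genes, where both measures contain the same control values.

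Ratios were also taken within pairs of related genes chosen after the values were seen. The ratio of Aurkb to Aurka was 1.18, 0.988 and 1.06 in tachypaced libraries, against 0.999, 1.2 and 1.18 in control libraries, and the groups overlapped. For the kinesins Kif20a and Kif20b the ratio was 0.894, 0.852 and 0.748 in tachypaced libraries, against 0.831, 1.17 and 1.24 in control libraries, with control replicate 1 within the tachypaced range. Neither ratio was tested.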
